A study of Mus musculus with 6 samples.

Results

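The genes described here encode the machinery that copies DNA in S phase, together with the enzymes and regulators that prepare a cell for it. They are 45 genes fixed by name, and all 45 were found among the 14864 genes of the deposited table by matching Ensembl identifiers to symbols in GENCODE M21. RNA had been taken from marginal zone B cells, flow-sorted from spleens of C57BL/6 mice aged 8 weeks, with 3 libraries labelled WT and 3 labelled CK2α-cKO, a conditional knockout of the catalytic α subunit of the kinase CK2. The comparison asks how the transcriptome of these cells differs between the genotypes. The sources used here do not give the Cre line, the cell types it acts in, the sort gates, the sex of the mice or whether each library came from its own mouse. The p-values therefore measure the spread between libraries, which may be technical in part.

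DNA replication begins when the origin recognition complex (Orc genes), Cdc6 and Cdt1 load the ring-shaped Mcm2 to Mcm7 helicase onto origins. Cdc45 and the Gins complex then switch the helicase on, primase and the polymerases α, δ and ε make the new strands, and the sliding clamp Pcna, placed by the Rfc loader, holds the polymerases on the template. Many of these genes are targets of the E2F factors, which cyclin E and its kinase release from RB proteins at the start of S phase. Marginal zone B cells mostly rest, but they divide quickly once stimulated.

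The libraries held 18778776 to 23503756 recovered reads each, and a member had between 45 (Gins2) and 3340 (Pcna) of them in a library. All values below are normalised reads, the deposited unit, in which 1 read was worth 0.891 to 1.098. Csnk2a1, the gene of the CK2α subunit, gave 4069, 3861 and 3939 in WT and 4124, 3951 and 4060 in cKO, with overlapping groups (log2 difference 0.03, adjusted p = 0.734 by limma). A count over the whole gene need not register a deleted exon, so the directions below are those of the libraries as labelled.

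The promoters of the 3 members that differed between the genotypes, and that of Mcm6 for comparison, are shown because the factors encoded by the members E2f1 and E2f2 bind a short element that many replication genes carry. Each is a RefSeq window from 250 bases before to 50 after the annotated start, 5′ to 3′ along the gene, with matches to the E2F letters TTTCCCGC, TTTGGCGC or TTTCGCGC on either strand in capitals.
Cdt1, GRCm38.p6, chr8:122567765-122568064, plus strand: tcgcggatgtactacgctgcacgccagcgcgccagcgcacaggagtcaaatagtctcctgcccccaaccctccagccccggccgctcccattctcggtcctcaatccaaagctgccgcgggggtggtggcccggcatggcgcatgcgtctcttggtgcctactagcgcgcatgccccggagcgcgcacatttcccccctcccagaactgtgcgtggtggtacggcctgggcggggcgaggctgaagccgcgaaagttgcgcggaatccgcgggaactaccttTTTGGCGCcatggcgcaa
Mcm7, GRCm38.p6, chr5:138171834-138172133, minus strand: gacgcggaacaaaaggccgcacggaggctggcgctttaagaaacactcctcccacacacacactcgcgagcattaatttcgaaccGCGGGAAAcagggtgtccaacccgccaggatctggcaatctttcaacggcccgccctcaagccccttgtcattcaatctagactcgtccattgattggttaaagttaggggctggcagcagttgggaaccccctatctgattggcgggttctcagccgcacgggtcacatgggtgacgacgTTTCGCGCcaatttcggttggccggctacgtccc
Rfc1, GRCm38.p6, chr5:65335590-65335889, minus strand: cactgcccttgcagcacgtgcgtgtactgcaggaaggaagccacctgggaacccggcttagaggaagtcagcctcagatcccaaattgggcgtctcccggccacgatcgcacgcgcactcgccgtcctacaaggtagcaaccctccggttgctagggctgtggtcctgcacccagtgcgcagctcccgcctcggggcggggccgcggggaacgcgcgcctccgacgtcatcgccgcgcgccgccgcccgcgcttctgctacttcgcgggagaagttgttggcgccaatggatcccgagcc
Mcm6, GRCm38.p6, chr1:128359656-128359955, minus strand: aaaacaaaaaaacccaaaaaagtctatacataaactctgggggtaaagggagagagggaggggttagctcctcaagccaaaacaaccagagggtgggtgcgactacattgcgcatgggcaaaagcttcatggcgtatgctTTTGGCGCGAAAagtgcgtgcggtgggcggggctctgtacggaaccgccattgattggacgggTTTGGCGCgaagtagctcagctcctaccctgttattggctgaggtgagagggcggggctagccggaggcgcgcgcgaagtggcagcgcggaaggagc

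The Cdt1 window held 1 match, starting at base 33 after the start, and the Mcm7 window held 2, at -165 and 17. The Mcm6 window held 3, of which the pair at -110 and -106 overlap and read on opposite strands, and the third lay at -47. The Rfc1 window held none of these letters, nor did the other Mcm7 window of the table. Over all members, 37 had a window, and 14 of these (37.8%) held a match. Of the 9957 tested genes with a window 4.1% held one, as did 2.1% of all 27025 genes in the table of promoters. The 14 were Orc1, Cdc6, Cdt1, Mcm3, Mcm5, Mcm6, Mcm7, Gins3, Pola1, Pold1, Pole2, Rfc3, Lig1 and E2f2. The CCAAT box (CCAAT) was in 23 of the 37 members' windows (62.2%) and in 4280 of the 9957 of tested genes, and the CHR letters TTTGAA or TTCGAA, an element of mitotic genes, in 21.6% against 16.9%, each on either strand. A match is a string of letters and says nothing of binding, and of the 14 members with an E2F match 12 did not pass the test between genotypes.

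Of the 45 replication genes, 3 passed the test between the genotypes, and they went both ways. Cdt1, the helicase-loading factor, and Rfc1, the large subunit of the clamp loader, fell in cKO, and Mcm7, a helicase subunit, rose. These 3 were the members that passed limma's test with Benjamini-Hochberg adjustment over the 14855 genes tested, 6.67% of the 45. Over all genes tested, 10.1% were called, 5.08% higher and 4.97% lower, so the members' share was near that of genes at large. In bulk samples, fewer cells of a type and less RNA per cell cannot be told apart. The other 42 members did not pass. The log2 difference, taken between group means of log2(value + 1) with WT subtracted from cKO, was at most 0.2 in size for 37 members and ran from -0.41 to 0.33. Its median was 0.005 over the members and -0.001 over all genes tested, and its median size was 0.10 against 0.16.

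The precision of these libraries set limits on what could have been missed. For 40 of the 45 members (88.9%) the 95% interval of the log2 difference lay within a 1.5-fold change in either direction, against 62.0% of all genes. The 5 members with wider reach were Cdt1, Gins1, Gins2, Mcm10 and Rrm2. The 3 values of each group did not overlap for 6 members, with cKO below WT for Cdt1, Rfc1, Rfc3, Rfc5 and Prim1 and above it for Mcm7. Groups without overlap made up 13.3% of the members and 31.6% of all genes tested, of which 15.9% had cKO above and 15.6% cKO below. An unadjusted p under 0.05 was reached by 6 members (13.3%), the 3 called ones with Prim1, Pole and Rrm2, and by 26.8% of all genes. By sign, 24 members lay above 0 and 21 below. These became 21 and 24 when libraries were rescaled to the total without immunoglobulin genes, where Mcm3, Rfc2 and Ccne1, at 0.00 to 0.01, turned. Exons of 15 of the 45 members share bases with another gene of the table, whose reads cannot be told apart from theirs if counting ignored strand. Cdt1 and Rfc1 are not among them.

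**Figure D1:**
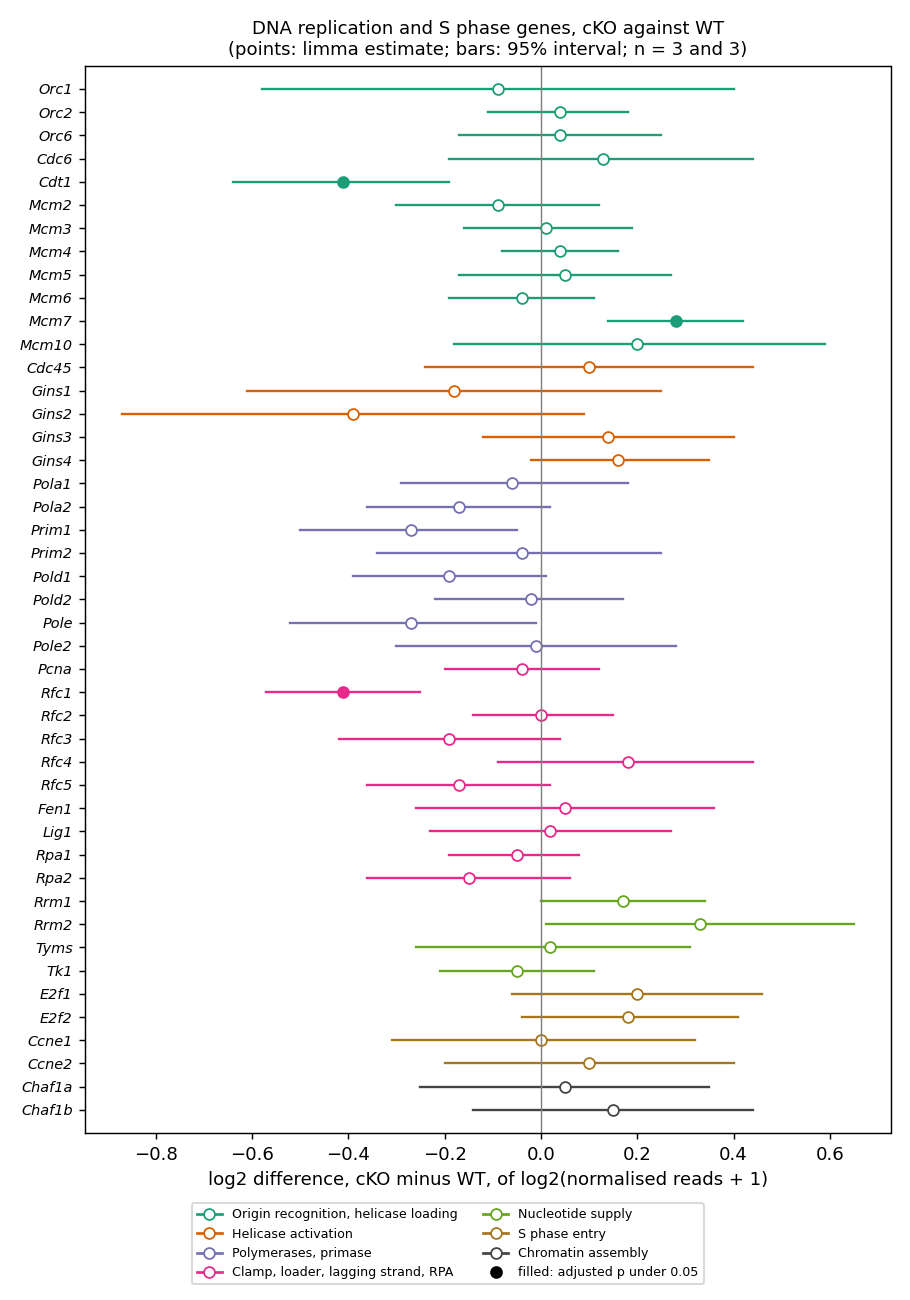
Log2 difference between cKO and WT (horizontal axis) for each of the 45 members (vertical axis, coloured by role), with limma's estimate as a point and its 95% interval as a bar, from 3 libraries a group. Filled points mark Cdt1 (-0.41), Mcm7 (0.28) and Rfc1 (-0.41), the members that passed the test, while most open points sit near 0.

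The members stood at very different levels per length of exon. Pcna, the sliding clamp, had the highest level in WT, 1262 normalised reads per kilobase, followed by the catalytic subunit of polymerase δ, Pold1, at 532.1 and Cdt1 at 454.2. Mcm10, a replication initiation factor that binds the Mcm ring, had the lowest at 16.3, next to Gins2 at 16.7 and Orc1 at 19.9. The 6 subunits of the Mcm2 to Mcm7 ring lay close together, between 182.4 (Mcm2) and 384.7 (Mcm4) per kilobase, although the 4 subunits of the Gins complex, also an equal assembly, ranged from 16.7 to 353.2 (Gins4). Exon length is the union over all GENCODE M21 transcripts, which understates the level of genes with long rarely used exons. Gins2, with 4.10 kilobases of exon, shares a stretch of 2758 bases with Gse1 on the opposite strand. The part of this overlap in its level was not tested.

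**Figure D2:**
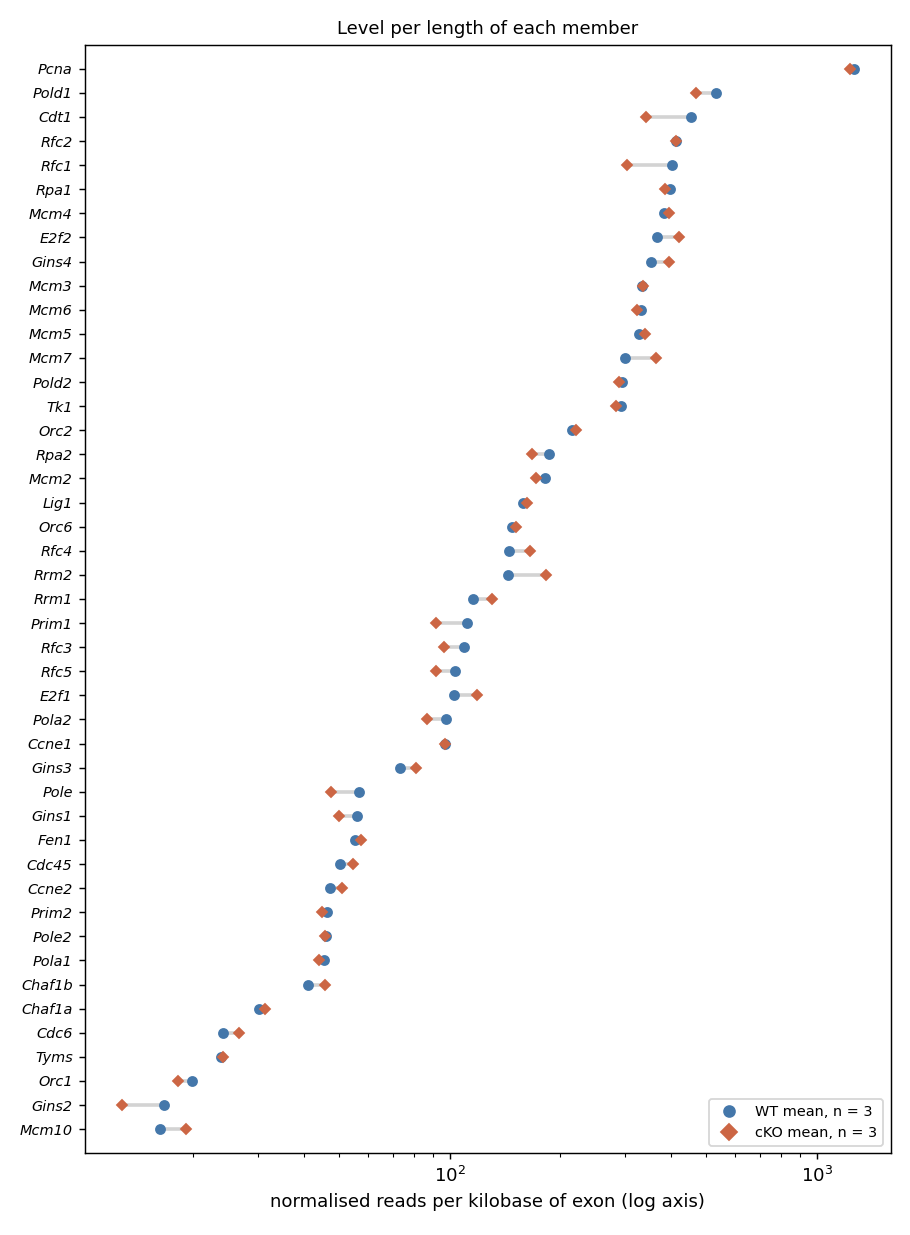
Mean level of each member in normalised reads per kilobase of exon (horizontal log axis) in WT (circles) and cKO (diamonds), 3 libraries each, ordered by the WT level. The symbols nearly coincide for most members, from Mcm10 at 16.3 to Pcna at 1262 in WT, and the widest shifts include Cdt1, Rfc1, Mcm7 and Gins2.

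Among the 12 genes of origin recognition and helicase loading, Cdt1 fell and Mcm7 rose, and 10 did not pass. Cdt1 (ENSMUSG00000006585) brings the Mcm ring to origins and is held in check by geminin. It stood at 1523, 1421 and 1335 normalised reads in WT replicates 1, 2 and 3 and at 1043, 1265 and 926.6 in cKO. All cKO libraries lay below all WT libraries, with cKO replicate 2 closest to them. The log2 difference was -0.41 ± 0.10 (standard error), a ratio of 0.76, with an adjusted p of 0.0295. The call was lost without any single library but cKO replicate 2, at adjusted p = 0.122, 0.0661 and 0.0666 without WT replicates 1, 2 and 3 and 0.0629 and 0.100 without cKO replicates 1 and 3.

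Mcm7 (ENSMUSG00000029730) gave 1317, 1290 and 1382 in WT and 1522, 1725 and 1600 in cKO. The groups did not overlap, and the log2 difference was 0.28 ± 0.06, a ratio of 1.22 (adjusted p = 0.0232). The call was lost without WT replicate 1, 2 or 3 or cKO replicate 3 (adjusted p = 0.0783, 0.0635, 0.0596 and 0.0724). The other subunits of the same ring did not pass, and their log2 differences lay between -0.09 (Mcm2) and 0.05 (Mcm5). The ratio of Mcm7 to the summed reads of Mcm2 to Mcm6 was 0.203, 0.188 and 0.199 in WT and 0.249, 0.235 and 0.235 in cKO. This ratio rests on the same Mcm7 values as the call and is not separate evidence. Exons of Mcm7 overlap those of Cops6 and Ap4m1 on the opposite strand. Neither neighbour passed (adjusted p = 0.439 and 0.602).

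Mcm6, the member of this role with the highest mean, stood at 1527, 1561 and 1566 in WT and 1391, 1636 and 1517 in cKO, with cKO libraries on both sides of WT. Mcm4 was among the steadiest, at 1381, 1347 and 1413 against 1393, 1436 and 1425, and the interval of its log2 difference ran from -0.08 to 0.16. Orc1, the largest subunit of the origin recognition complex, was the lowest of this role. Its 61.5, 53.7 and 92.9 in WT overlapped the 65.1, 64.4 and 60.9 in cKO, with WT replicate 3 highest. The log2 differences of Orc2 and Orc6 were both 0.04, that of Cdc6, the ATPase that works with Cdt1, was 0.13, that of Mcm3 0.01 and that of Mcm10 0.20, with adjusted p-values of 0.494 to 0.950.

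Of 15 partners in licensing and origin firing, 1 rose and 1 fell. Gmnn, the gene of geminin, which binds Cdt1 and blocks reloading, went from 281.1, 343.6 and 409.9 in WT to 434.1, 457.7 and 578.9 in cKO. Its groups did not overlap (log2 difference 0.51 ± 0.15, adjusted p = 0.0487). Cdc7, the kinase that fires loaded origins, fell from 770.9, 767.2 and 810.9 to 544.7, 671.9 and 638.7 (-0.35 ± 0.09, adjusted p = 0.0310), while its activator Dbf4 gave -0.01. Set beside each other, Cdt1 had 5.418, 4.135 and 3.258 reads for each read of Gmnn in WT and 2.402, 2.764 and 1.601 in cKO. The ratio joins 2 genes called in opposite directions, so it is not separate evidence. The calls of Gmnn and Cdc7 are near the threshold. That of Gmnn was lost with edgeR (adjusted p = 0.0503), with rescaling without immunoglobulin genes (0.0559) and without WT replicate 1 or 2 or cKO replicate 3 (0.173, 0.0964 and 0.168). That of Cdc7 was lost without each of the libraries but cKO replicate 2, at 0.0602 to 0.115.

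The 5 genes that switch the loaded helicase on did not pass. Gins4 gave 457.9, 477.4 and 494.0 in WT and 493.9, 574.3 and 536.6 in cKO, where the lowest cKO value met the highest WT value. Gins3 stood at 218.5, 184.4 and 193.7 against 222.0, 204.7 and 230.1, and Gins2 at 76.9, 60.1 and 68.5 against 40.1, 55.9 and 61.9. These subunits of 1 complex thus did not share a direction, with log2 differences of 0.16 for Gins4, 0.14 for Gins3, -0.18 for Gins1 and -0.39 for Gins2. The interval for Gins2 reached from -0.87 to 0.09, so a sizeable fall could not be told from none at its depth. Its exons overlap those of Gse1 on the opposite strand, which gave -0.16 (adjusted p = 0.224). Cdc45, the helicase cofactor, had 150.7 in cKO replicate 1 and 224.6 and 200.2 in the others, around WT values of 179.0, 166.5 and 184.9.

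All 8 members of primase and the replicative polymerases had log2 differences below 0, and none passed the test (adjusted p from 0.117 to 0.971). Their median was -0.11, and Pola1, Prim2, Pold2 and Pole2 changed sign in at least 1 alternative. Polymerase subunits outside the members went both ways, with 0.29 for Pole3, 0.03 for Pold4, -0.09 for Pold3 and -0.12 for Pole4. Prim1, the catalytic subunit of primase, which lays down RNA primers, stood at 473.3, 439.5 and 382.5 in WT and 328.9, 361.0 and 377.7 in cKO. Its groups did not overlap, by a small margin (-0.27 ± 0.10, adjusted p = 0.117), while its partner Prim2 gave -0.04. Pole, the catalytic subunit of the leading-strand polymerase ε, was tight in WT at 631.4, 620.7 and 643.7 and spread from 444.8 and 509.8 to 637.7 in cKO, where replicate 3 alone reached the WT level. It passed without that library (-0.41, adjusted p = 0.0450, against 0.164 with all libraries), in a range of 0.0450 to 0.413 over the alternatives.

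Pold1, the catalytic subunit of the lagging-strand polymerase δ, showed 2750, 2570 and 2436 in WT and 2112, 2662 and 2055 in cKO. Here cKO replicate 2 lay within the WT range, and without it the gene passed (-0.31, adjusted p = 0.0137, against 0.209 with all libraries and a range up to 0.502). For Pole, Pold1, Rrm2 and E2f2, the library whose removal gave a pass stood apart in the gene's own cKO values. These passes are therefore not separate evidence. Pola2, a subunit of polymerase α, stood at 796.1, 778.8 and 857.9 against 653.4, 807.4 and 703.7. Pole2, the accessory subunit of polymerase ε, was the lowest of the role and gave 138.4, 132.8 and 127.2 against 124.8, 137.4 and 133.1, so WT and cKO were interleaved. Pola1 and Pold2 gave -0.06 and -0.02.

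Rfc1 was the member with the firmest difference. It encodes the large subunit of the loader that opens the Pcna ring and sets it on DNA. Rfc1 (ENSMUSG00000029191) stood at 2317, 2528 and 2417 in WT and at 1704, 2031 and 1757 in cKO. All cKO libraries lay below all WT libraries, with cKO replicate 2 the closest. The log2 difference was -0.41 ± 0.07, a ratio of 0.76, with an adjusted p of 0.00812, and the gene passed in all 15 alternatives (adjusted p from 7.56e-05 to 0.0409).

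The 4 small subunits of the loader did not pass. Rfc3 gave 389.8, 387.8 and 409.9 in WT and 361.9, 381.9 and 301.3 in cKO, and Rfc5 493.0, 447.9 and 503.8 against 403.8, 437.8 and 441.6. In both the cKO libraries lay below WT, narrowly but for Rfc3 in cKO replicate 3, with log2 differences of -0.19 ± 0.10 and -0.17 ± 0.09 (adjusted p = 0.263 and 0.227). Rfc4 went the other way, at 0.18, and Rfc2, whose exons overlap those of Lat2 (log2 difference -0.21, adjusted p = 0.0494), gave 0.00, from 2486, 2566 and 2747 in WT and 2498, 2510 and 2823 in cKO. The ratio of Rfc1 to the summed small subunits was 0.649, 0.695 and 0.621 in WT and 0.488, 0.567 and 0.457 in cKO, and rests on the same Rfc1 values as the call.

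Pcna, for which the loader works, did not pass. It stood at 2959, 2858 and 3267 in WT and 2683, 3100 and 3077 in cKO, and the interval of its log2 difference, -0.20 to 0.12, leaves room for small changes only. Fen1, the nuclease that trims Okazaki fragments, gave 130.7, 125.4 and 144.8 against 133.7, 155.4 and 126.9. Lig1, which seals them, gave a log2 difference of 0.02, and the single-strand binding subunits Rpa1 and Rpa2 gave -0.05 and -0.15, all with overlapping groups.

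**Figure D3:**
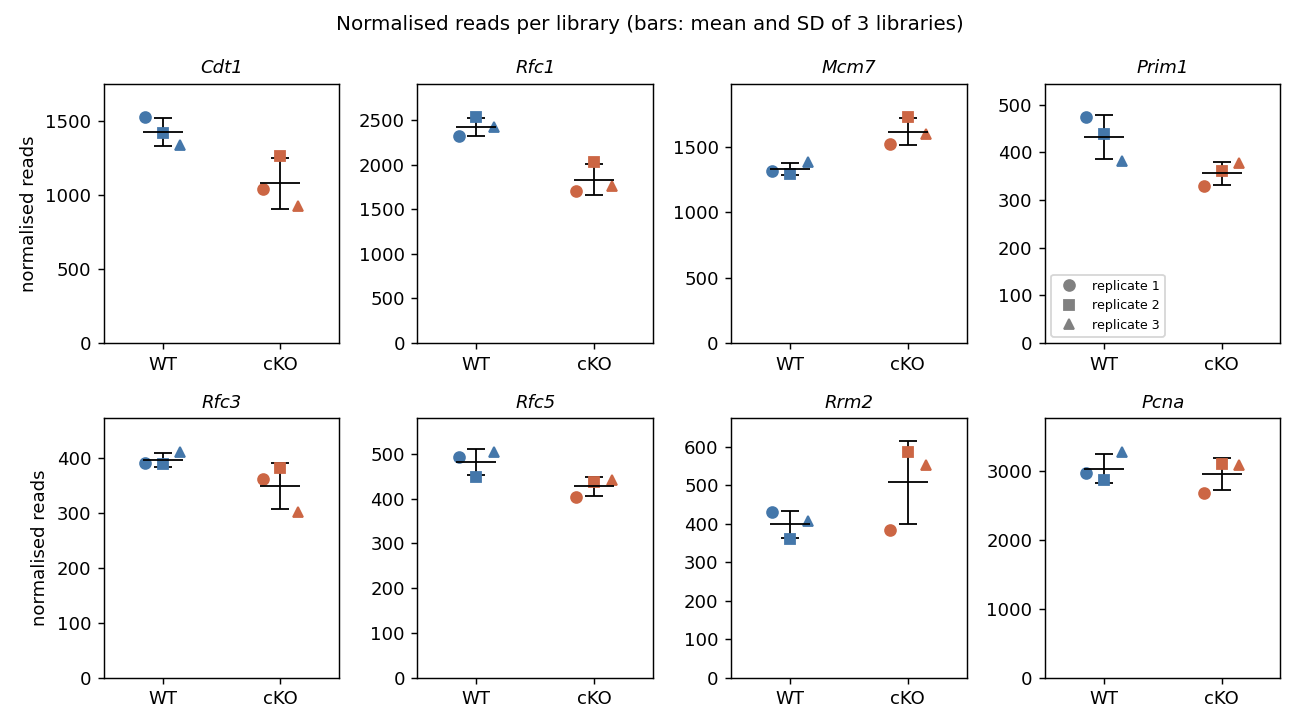
Normalised reads per library (vertical axis, from 0) in WT and cKO for 8 members, with symbols by replicate number and bars at the mean and SD of 3 libraries. The groups stand apart for Cdt1, Rfc1, Mcm7, Prim1, Rfc3 and Rfc5 and overlap for Rrm2, where cKO replicate 1 (385.1) lies within the WT range, and for Pcna.

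The 4 enzymes that supply deoxynucleotides did not pass. Rrm1, the large subunit of ribonucleotide reductase, gave 1199, 1276 and 1343 in WT and 1279, 1493 and 1531 in cKO (0.17 ± 0.08, adjusted p = 0.194). Rrm2, its S phase subunit, is described after its values were seen, as it had the largest log2 difference above 0 of all members, 0.33 ± 0.14 (adjusted p = 0.175). It stood at 430.4, 361.5 and 406.9 in WT and at 385.1, 586.6 and 554.1 in cKO, so that cKO replicates 2 and 3 lay above WT and replicate 1 within it. Without cKO replicate 1 the difference was 0.52 and passed (adjusted p = 0.0145, in a range up to 0.400). Tk1, the thymidine kinase of dividing cells, gave 1543, 1611 and 1423 against 1582, 1349 and 1499, and Tyms, which makes thymidylate, 142.8, 153.9 and 137.9 against 155.1, 136.5 and 149.6. The groups overlapped for both.

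The regulators of S phase entry did not pass either, though all 4 differences were at or above 0. E2f2 gave 1859, 1772 and 1749 in WT and 1670, 2333 and 2166 in cKO, where replicates 2 and 3 lay above all WT libraries and replicate 1 below them. Its log2 difference of 0.18 (adjusted p = 0.280) became 0.33 without cKO replicate 1 and passed (adjusted p = 0.0167, in a range up to 0.615). E2f1 stood at 298.7, 338.3 and 335.5 against 320.9, 370.5 and 431.3 (0.20 ± 0.12, adjusted p = 0.304). Ccne2, a cyclin E gene, gave 170.2, 159.1 and 165.3 against 161.3, 163.0 and 210.5, and Ccne1 a log2 difference of 0.00. The large subunit of chromatin assembly factor 1, Chaf1a, which places histones behind the fork, gave 242.7, 278.2 and 280.7 against 224.6, 302.3 and 310.6, and Chaf1b 175.7, 210.8 and 191.7 against 188.1, 241.6 and 214.6. Neither passed.

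The members varied more between the cKO libraries than between the WT libraries. The SD of log2 values was larger in cKO for 37 of the 45 members (82.2%), against 52.6% of all genes tested, with a median SD of 0.155 in cKO and 0.087 in WT. Of the cKO libraries, replicate 1 was the lowest for 33 of the 45 members (73.3%), while 34.5% of all genes were lowest in it. The summed reads of the members were 33353 in cKO replicate 1, 38395 and 36719 in cKO replicates 2 and 3 and 36394, 36907 and 37559 in WT. In cKO replicate 1, 24 members lay below all WT libraries and 5 above them. In cKO replicate 2 these counts were 10 and 21, and in cKO replicate 3 they were 11 and 20. The same counts over all genes are not given, here or for the mitosis genes below, so they have no background to be read against. Without cKO replicate 1 the members called were Mcm7, Rfc1, Rrm2 and E2f2, with a median log2 difference of 0.04 over the 45. In that fit 6.24% of all genes were called. Without cKO replicate 2 they were Cdt1, Mcm7, Pold1 and Rfc1 (median -0.03, 11.6% of all genes called). Without cKO replicate 3 they were Pole and Rfc1 (median -0.03, 3.57% of all genes called).

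Genes of mitosis, a later phase of the cell cycle, were also split between the cKO libraries. Of 26 such genes, 1 rose and 0 fell, and all 26 had log2 differences above 0, with a median of 0.27 against 0.005 for the replication genes. The sign held for 23 of them without cKO replicate 2 and for 24 without cKO replicate 3. Nusap1, a spindle protein, rose from 287.7, 251.9 and 342.4 to 381.5, 463.4 and 499.4 (0.61 ± 0.13, adjusted p = 0.0195), and its exons overlap those of Oip5. In cKO replicate 2 all 26 genes, and in cKO replicate 3 25 of them, lay above all WT libraries, against 4 in cKO replicate 1. Without cKO replicate 1, 12 of the 26 were called, with a median of 0.46, while 6.24% of all genes tested were called. That library stood apart in these same values, so the 12 calls are not separate evidence. With DESeq2 on all libraries 4 were called, and with edgeR 1. Leaving out any other single library gave 0 or 1 call. Nusap1 lost its call without WT replicate 1 or 2 or cKO replicate 3 (adjusted p = 0.0734, 0.0519 and 0.0779). 

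**Figure D4:**
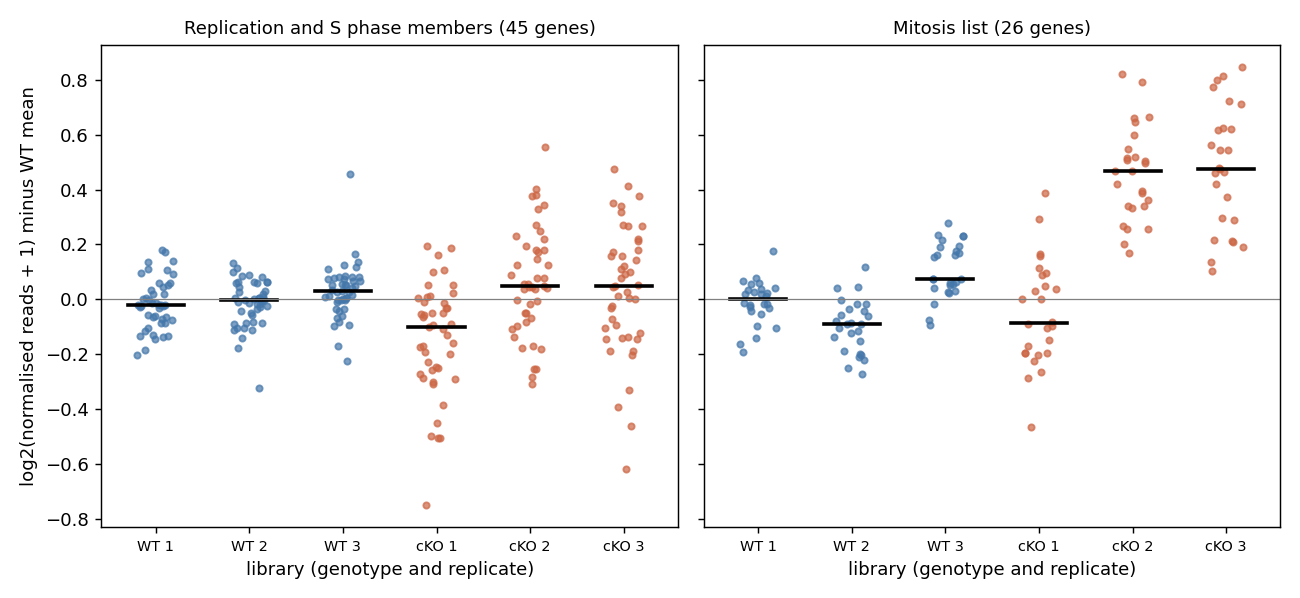
Each point is 1 gene in 1 library, placed by its log2(normalised reads + 1) minus its WT mean (vertical axis), for the 45 members on the left and the 26 mitosis genes on the right, with black bars at the median of each library. The members' medians stay between -0.10 and 0.05, while those of the mitosis genes are 0.47 and 0.48 in cKO replicates 2 and 3 and -0.08 in cKO replicate 1.

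Markers of other cells also differed between these libraries, and their part in the replication values was not tested. The summed level of 10 tested erythroid genes was 7037 in cKO replicate 1 and 3462 and 2535 in the other cKO libraries, and 3194, 13016 and 2322 in WT replicates 1, 2 and 3, with 0 called by limma. Hbb-bs, a globin gene, ran from 285.8 to 2160 in cKO and from 279.8 to 4651 in WT. The 9 tested myeloid genes summed to 2076 in cKO replicate 1, 1348 and 1347 in cKO replicates 2 and 3 and 1301 to 1966 in WT, with 0 called. At an unadjusted p under 0.05 limma gave 0 erythroid and 2 myeloid genes, and edgeR and DESeq2 called 0 of either list. Without cKO replicate 1 or 2, 1 and 2 myeloid genes were called. Of 11 germinal centre genes, which mark a dividing B cell type, Bcl6, Fas and Nuggc fell (log2 differences of -0.97, -0.94 and -1.08) and 0 rose, and the sums were 1612, 2196 and 1604 in cKO and 2095 to 3095 in WT. The median log2 difference of that list was -0.73. Its calls depended on single libraries: 0 of the 11 were called without WT replicate 1 or 3 or cKO replicate 1 or 3, and 6 without cKO replicate 2. Bcl6 also lost its call with robust moderation (adjusted p = 0.138, the highest of its alternatives).

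Among 9 plasma cell genes Mzb1 rose (0.24) and Irf4 fell (-0.71), and Xbp1 gave -0.06. Mzb1 lost its call when rescaled without immunoglobulin genes (adjusted p = 0.0608) and without any library but cKO replicate 2 (up to 0.170). Irf4 lost it with robust moderation (0.160) and without WT replicate 1 or 3 or cKO replicate 1 (0.104, 0.0948 and 0.0554). Of 6 tested T cell genes Lck fell (-0.79), Zap70 and Tcf7 gave -0.48 and -0.20 without passing, and the list's summed level was 417.2 to 568.6 in cKO and 760.9 to 875.2 in WT. All 6 lay below 0, with a median of -0.76, and 5 had an unadjusted p under 0.05 by limma. Lck alone stood at 592.3 to 686.3 in WT and 297.7 to 440.6 in cKO, so it made up most of each sum. Cd4, Cd8a and Cd247 had only 3 to 30 reads in a library. Cd3d, Cd3e, Cd3g and Trac, which define T cells, were not analysed here. Whether T cell content differed was not tested. The most abundant of the other lists that did not pass were Neil1 (-0.09) and Mybl1 (-0.49) for germinal centre cells, Tfrc (0.13), Hbb-bs (-0.40) and Hba-a1 (-0.21) for erythroid cells and Lyz2 (0.10), Adgre1 (-0.05) and Csf1r (-0.62) for myeloid cells. Csf1r passed without cKO replicate 1 (-1.17, adjusted p = 0.0145, in a range up to 0.721).

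Markers of the labelled cell type were abundant, with Cr2, the complement receptor high on marginal zone B cells, at 59691 to 76108 normalised reads. Of 8 general B cell genes limma and edgeR called 0, although 3 had an unadjusted p under 0.05, and DESeq2 called 2. Ms4a1 (0.21) passed with DESeq2 (adjusted p = 0.0217), with robust moderation (0.0482) and without cKO replicate 2 (0.0437), in a range up to 0.238, and Cd79a and Pax5 gave -0.01 and 0.02. Of 14 marginal zone genes Cd1d1, Cd9, Asb2, Myof, Plac8, Mzb1 and Rgs10 rose and 0 fell, while the most abundant, Cr2, Dtx1 and Notch2, gave 0.07, 0.24 and -0.11 without passing. Dtx1 passed with the replicate block (adjusted p = 0.0381), DESeq2 (0.0132), robust moderation (0.0404) and without cKO replicate 2 (0.00755), in a range up to 0.187. Among the follicular B cell genes reported here Klf2, Ccr7 and Icosl fell and 0 rose, and none of these 3 was called without WT replicate 3 or cKO replicate 3. Cxcr5 gave 0.26 without passing, but passed in 4 of 15 alternatives, DESeq2 among them (adjusted p = 0.0179, in a range up to 0.183). Cr2, Mzb1 and, among the pathway lists, Top2a each stand in more than 1 list. The share called was 50% of the marginal zone, 27.3% of the germinal centre, 22.2% of the plasma cell and 16.7% of the T cell genes. It was 0% of the erythroid, myeloid and general B cell genes, beside 10.1% of all genes. The lists were chosen with earlier results known, so their shares are not separate evidence. The part of any of these lists in the members' values was not tested.

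In the wider pathway, the share called was 8% of the fork partners and 13.3% of the licensing partners, beside 10.1% of all genes. It was 4.55% of the nucleotide supply genes, 3.85% of the E2F, RB and cyclin genes and 3.85% of the mitosis genes. For histone supply and chromatin copying it was 0%. Of 25 fork partners 2 rose and 0 fell. Top1, the topoisomerase that relaxes DNA ahead of the fork and also acts in transcription, rose from 3713, 3410 and 3603 to 5435, 4665 and 4783 (0.47 ± 0.07, adjusted p = 0.00274) and passed in all 15 alternatives. Pole3, a histone-fold subunit of polymerase ε, rose from 407.4, 397.3 and 435.3 to 482.3, 508.9 and 530.4 (0.29 ± 0.08, adjusted p = 0.0462), whereas the catalytic Pole did not pass. The call of Pole3 was lost in 9 of 15 alternatives, among them DESeq2 and leaving out any 1 library, with adjusted p up to 0.155.

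Of 22 further genes of nucleotide supply 1 rose, Paics, an enzyme of purine synthesis (2102, 2375 and 2278 against 2824, 2570 and 2762, 0.27 ± 0.06, adjusted p = 0.0238), and 0 fell. Of 26 genes of E2F, RB and cyclin control 1 fell, Rbl1, the RB relative p107 (802.7, 870.5 and 866.7 against 563.4, 770.4 and 640.8, -0.37 ± 0.10, adjusted p = 0.0456), and 0 rose. Ccnd1 had the largest log2 difference of that list, 0.60 ± 0.17, with groups that did not overlap, and just missed the threshold (adjusted p = 0.0503). Over the alternatives, 0 (edgeR among them) to 4 (without cKO replicate 2) of the 26 were called. Paics lost its call without WT replicate 1 or 3 or cKO replicate 1 or 3 (adjusted p up to 0.0890), and Rbl1 with edgeR (0.0527) and without any library but cKO replicate 2 (up to 0.138). Of 13 genes of histone supply and chromatin copying limma and edgeR called 0 and DESeq2 1, and 3 had an unadjusted p under 0.05 by limma. Without cKO replicate 1, 2 were called, and Rbbp4, the most abundant of them, gave 0.10 ± 0.05. The medians of these lists ran from -0.01 (licensing partners) to 0.08 (nucleotide supply), close to that of all genes.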

How the data were processed

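RNA-seq libraries of sorted marginal zone B cells were compared, 3 labelled WT and 3 labelled cKO. Per the submitters' processing notes, bcl2fastq 2.17, Trimmomatic 0.36 and STAR 2.5.2b were used with the build mm9. For the counter, annotation, strand setting and normalization, no tool or setting is named there. The authors deposited a normalised signal per gene, and its values show read counts divided by 1 factor a library: 100% were whole multiples of 1 read within 0.02 of a read. The lowest value of cKO replicate 1 was worth 2 reads. Each gene had at least 61 reads in all, so rarer genes were not analysed here. Replicates differed by more than sampling noise (chi-square per gene of 6.37 to 12.7).

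Genotypes were compared with limma 3.58.1 (R 4.3.3, moderation with trend, two-sided, no covariate) on log2(value + 1), for the 14855 genes with a mean of at least 10, with Benjamini-Hochberg adjustment and a threshold of 0.05. ± is the standard error of a difference. Rose and fell are used of genes that passed. Alternatives were edgeR 4.0.16 and DESeq2 1.42.0 on the recovered reads, pseudocounts of 0.5 and 10, no filter, 2 rescalings, robust moderation, a replicate block and each library left out. The fitting steps were tested on simulated data. The members and lists were chosen with earlier results of these data known, so no p is adjusted over a list or given for one. All members are named. Values in all libraries are given where a member passed, where groups did not overlap, and for the 2 highest and the lowest of each role. Pathway lists add up to 4 called genes each, or the most abundant where none was called. Marker lists add their 3 most abundant genes, except for a follicular B cell gene that is not reported here. GENCODE M21 named 14824 identifiers. Promoters are RefSeq's (GRCm38.p6), a build other than that of the notes, and the deposited values carry no coordinates.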

Additional observations from a re-analysis of the deposited data

How the results depend on the processing

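The 3 calls among the members, 1 higher and 2 lower, were the same under the 9 alternatives that kept all libraries, including edgeR and DESeq2. They were less firm when a library was left out, where 0 to 3 members were called higher and 1 to 3 lower, and the calls over all genes ranged from 497 to 1730 against 1494. Fewer samples were fitted there. No called member changed sign in any alternative. For groups that do not overlap this is fixed in advance, except under the 2 rescalings, edgeR and DESeq2, which scale the libraries anew. Of the 42 members that were not called, 20 changed sign in at least 1 of the 15 alternatives, by at most 0.14 on the other side of 0. Rescaling by TMM left 53.1% of all calls higher and rescaling without immunoglobulin genes 43.7%, against 50.5%. Both shifted the median of all genes by less than 0.1.

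The same replicate numbers stand in both groups, but nothing in the labels says that they pair libraries. Deviations of same-numbered libraries correlated across genes at -0.07, -0.02 and 0.15, and not every library correlated best with its own number. With a replicate block the calls were 1551 over all genes, 1 higher and 2 lower among the members. Depth limits the least abundant members most, such as Gins2 with as few as 45 reads in a library.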
